A study of Mus musculus with 24 samples.

Results

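A set of 8 genes of antibody-secreting cells were followed across sorted bone marrow populations: Igha, Jchain, Mzb1, Xbp1, Prdm1, Irf4, Sdc1 and Tnfrsf17. They were chosen by their measured values in part: the set was drawn up after earlier results of these data had shown high Igha and Jchain signal in haematopoietic stem cells (HSC), and all 17 probe sets annotated to one of these symbols alone were taken. The array measured 18194 genes through such probe sets, and 12765 genes, 7 of the 8 members among them, passed the filter on dim values and were tested. Tnfrsf17 did not pass. Because the choice used the HSC signal, the levels of the members in HSC against the other cell types are given as a description without a test.

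Marrow cells of 129ola mice, 8 to 12 weeks of age, were sorted, and the RNA of 35000 to 100000 cells was hybridised to each Affymetrix expression array. Dnmt1, the enzyme that copies DNA methylation to the new strand after replication, was reduced in mice of the genotype Dnmt1-/chip, called hypomorphs here, and Dnmt1+/+ mice were the wildtype. There were 2 arrays of wildtype HSC, 3 of hypomorph HSC, 3 of wildtype myeloid progenitors (MP), 3 of hypomorph MP and 2 of wildtype B cell progenitors, and no group was labelled as plasma cells. The labels give the genotype of the mice and name no transplantation and no Cre. Values are log2 intensities, so a difference of 1 is a 2-fold change. Whether a group's arrays stem from different mice is not stated, so each p-value reflects array-to-array spread alone. In bulk samples, fewer cells of a type and less RNA per cell cannot be told apart.

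Antibody-secreting cells arise from B cells when Irf4 and Prdm1 (Blimp-1) shut down the B cell programme and Xbp1 expands the secretory apparatus. The heavy chain constant region gene Igha makes the chain of IgA, and the J chain, encoded by Jchain, links IgA and IgM into polymers. Mzb1 is a chaperone of the endoplasmic reticulum that helps to assemble immunoglobulin, Sdc1 encodes the surface marker CD138, and Tnfrsf17 encodes BCMA, a survival receptor of plasma cells. The bone marrow holds long-lived plasma cells next to stem cells and developing B cells.

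Igha lies at chr12:113256204-113260236 of GRCm38.p6, annotated as a constant region segment. RefSeq promoter sequences of that build, from 250 bases before to 50 after the start, were matched for 6 of the 8 members. A set of 3 is printed because their levels across the cell types differ in kind: Jchain, high in HSC and B progenitors, Irf4, high in B progenitors and dim in HSC and MP, and Xbp1, bright in every group. Capitals mark CpG, the dinucleotide that Dnmt1 keeps methylated. The Jchain sequence is chr5:88527848-88528147 on the minus strand, the Irf4 sequence chr13:30748983-30749282 and the Xbp1 sequence chr11:5520391-5520690, both on the plus strand.
Jchain: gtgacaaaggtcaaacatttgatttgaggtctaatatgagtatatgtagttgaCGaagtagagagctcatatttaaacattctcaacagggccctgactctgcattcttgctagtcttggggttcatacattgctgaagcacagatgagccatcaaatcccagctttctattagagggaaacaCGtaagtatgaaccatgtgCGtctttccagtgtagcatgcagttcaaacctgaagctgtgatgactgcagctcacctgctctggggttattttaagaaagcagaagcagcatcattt
Irf4: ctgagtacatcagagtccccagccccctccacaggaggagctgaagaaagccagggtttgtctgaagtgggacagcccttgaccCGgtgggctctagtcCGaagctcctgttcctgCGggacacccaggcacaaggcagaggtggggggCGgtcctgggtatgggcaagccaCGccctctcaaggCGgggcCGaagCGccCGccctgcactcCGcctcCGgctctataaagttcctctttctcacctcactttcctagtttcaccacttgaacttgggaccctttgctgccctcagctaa
Xbp1: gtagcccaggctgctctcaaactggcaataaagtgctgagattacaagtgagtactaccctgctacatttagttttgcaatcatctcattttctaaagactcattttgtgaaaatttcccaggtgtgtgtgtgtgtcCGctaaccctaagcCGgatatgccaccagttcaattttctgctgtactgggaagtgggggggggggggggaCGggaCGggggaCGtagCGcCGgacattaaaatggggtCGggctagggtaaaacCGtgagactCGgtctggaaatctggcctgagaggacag

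The Jchain promoter holds 3 CpG, and 76.7% of 32851 promoters hold at least as many. Xbp1 holds 10 and Irf4 11, where the median promoter holds 7. Of those not printed, Tnfrsf17 holds 6, Sdc1 14 and Prdm1 20. The octamer ATGCAAAT, the motif of the Oct factors of B cells, was searched on both strands and occurred in none of the 6 windows, against 1.74% of all promoters. The E-box CANNTG occurred 4 times in Jchain, 2 times each in Xbp1, Prdm1 and Tnfrsf17, and 1 time each in Irf4 and Sdc1, and 72.3% of promoters hold at least one. The letters CCACG, the core of the element that Xbp1 binds, occurred 2 times in Prdm1 and 1 time each in Irf4 and Sdc1, and 32.8% of promoters hold them. No methylation was measured here, and a match of letters is not a bound site.

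The labelled cell types were checked against markers. Stem cell genes averaged 8.73 to 9.66 on the HSC arrays, 7.0 to 7.91 on the MP arrays and 4.93 to 5.09 on the B progenitor arrays. Myeloid progenitor genes averaged 7.99 to 9.19 in HSC, 11.44 to 11.66 in MP and 5.69 to 5.80 in B progenitors. B progenitor genes averaged 11.45 and 11.74 on the B progenitor arrays, against 6.70 to 7.32 elsewhere. Array medians over all probe sets lay between 4.56 and 4.74.

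The genes of the secreted antibody itself were bright in HSC. Igha read 13.40 and 13.43 on the wildtype HSC arrays and 12.83, 12.85 and 11.26 on the hypomorph HSC arrays. On the MP arrays it read 5.19, 5.24 and 5.34 in the wildtype and 6.71, 5.13 and 5.20 in the hypomorph. All HSC arrays lay above all MP arrays, with a mean difference of 8.16 in the wildtype, which is 286-fold, and 6.63 in the hypomorph, which is 99.3-fold. The MP values carry no detection call, so these folds compare intensities. The further probe sets of Igha had the same order, with HSC at 11.03 to 13.20 on one and at 9.38 to 12.61 on the other. The last hypomorph HSC array was the lowest HSC array on each of the 3 probe sets.

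The B progenitor arrays did not give a common value for Igha. They read 7.37 and 12.74, so the second lay within the range of the HSC arrays and the first below all of them. This gap of 5.37 ranked 3 among the 12765 genes tested between these arrays, of which 37 differed by at least 2, and the median gap was 0.33. The neutrophil gene S100a8 differed by 2.69 in the same direction, at rank 7, and neutrophil genes averaged 4.42 and 5.51 on the same arrays. Its part in the Igha value was not tested. The mean of wildtype HSC was above that of B progenitors by 3.36, or 10.3-fold, a value that becomes 0.68 or 6.04 when only the second or only the first B progenitor array is used.

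Jchain read 11.31 and 8.74 in wildtype HSC, 8.94, 9.43 and 8.13 in hypomorph HSC, and 9.70 and 10.00 in B progenitors. On the MP arrays it read 3.55, 3.72 and 3.29 in the wildtype and 3.87, 3.40 and 4.04 in the hypomorph. The HSC arrays were thus all far above the MP arrays and overlapped with the B progenitors. The difference from MP was 6.51 in the wildtype and 5.06 in the hypomorph, and the difference from B progenitors was 0.17. Every MP value of Jchain is below the median of all values, where a probe set cannot be placed above background, so no fold is given. The wildtype HSC arrays differed from each other by 2.57, at rank 20 of all genes tested, whereas their Igha values differed by 0.02.

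The chaperone Mzb1 was between the groups. It read 7.93 and 6.02 in wildtype HSC, 5.48, 5.97 and 5.46 in hypomorph HSC, 4.36 to 5.02 in MP, and 11.86 and 12.05 in B progenitors. Every HSC array was above every MP array, by 2.36 on average in the wildtype and 0.84 in the hypomorph. Wildtype HSC stayed below B progenitors by 31.6-fold, a log2 difference of -4.98. The wildtype HSC array that was higher for Jchain was also higher for Mzb1, by 1.92.

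**Figure D1:**
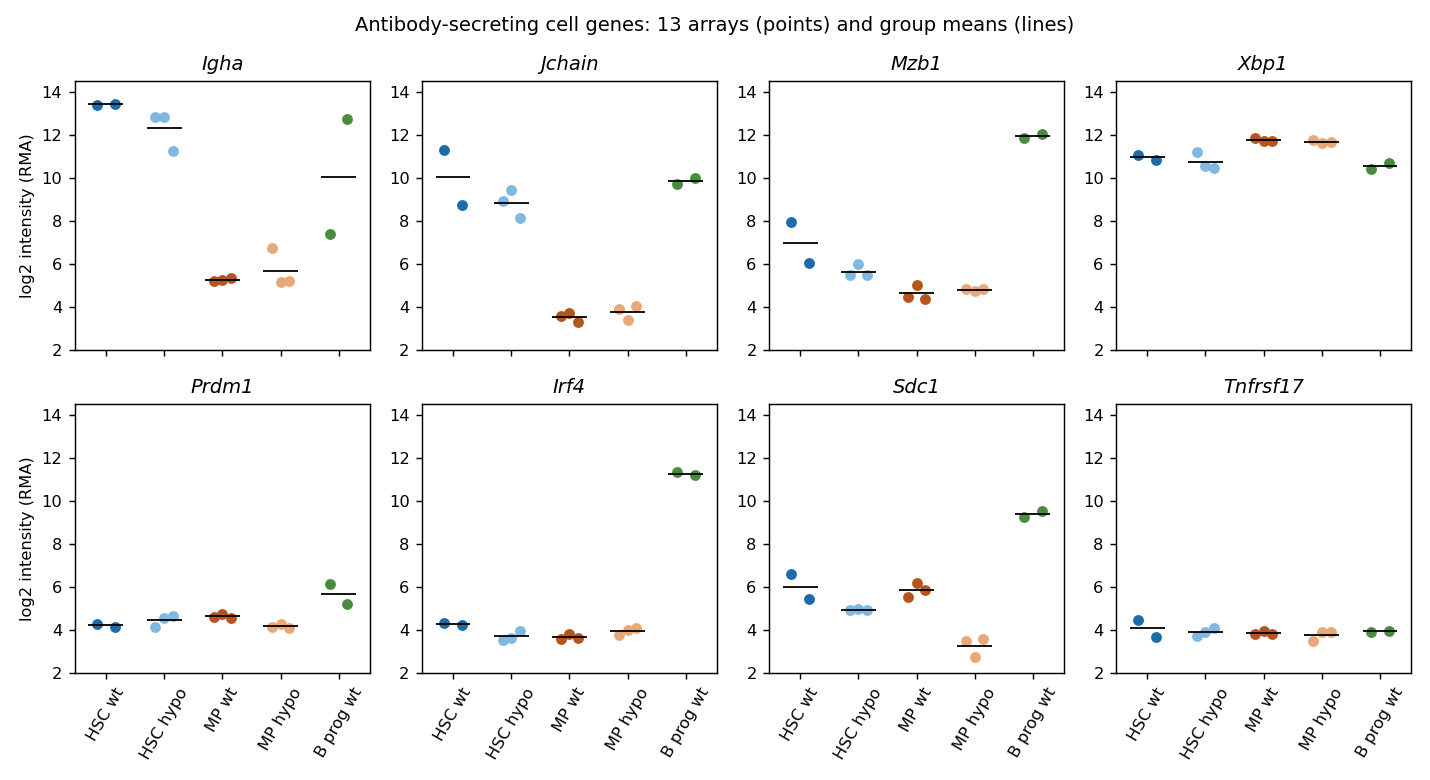
Log2 RMA intensity (vertical axis) of the 8 genes on each of 13 arrays (points) in 5 groups, with group means as lines; wt is wildtype and hypo hypomorph. Igha and Jchain are high on all 5 HSC arrays and low in MP, whereas Prdm1, Irf4 and Tnfrsf17 stay below 5 on every HSC and MP array, and the B progenitor arrays differ by 5.37 for Igha.

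The transcription factors that drive plasma cell formation were not bright in HSC. Irf4 read 4.33 and 4.23 in wildtype HSC, 3.52, 3.64 and 3.96 in hypomorph HSC, 3.57 to 4.07 in MP, and 11.32 and 11.22 in B progenitors. The HSC and MP arrays overlapped and lay far below the B progenitors, with a wildtype difference between HSC and B progenitors of -6.99. A further Irf4 probe set read 3.14 to 4.17 on all 13 arrays, also where the first was bright, and failed the filter. Prdm1 read 4.12 to 4.63 in HSC, 4.07 to 4.74 in MP, and 6.14 and 5.22 in B progenitors. Its HSC and MP values overlapped, and every HSC array was below 4.64, the median of all values.

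Xbp1 was bright in every group and lower in HSC than in MP. Its brightest probe set read 11.05 and 10.84 in wildtype HSC, 11.22, 10.54 and 10.45 in hypomorph HSC, 11.62 to 11.86 in MP, and 10.41 and 10.69 in B progenitors. All HSC arrays lay below all MP arrays, by 0.82 in the wildtype and 0.93 in the hypomorph. On another Xbp1 probe set the last hypomorph HSC array read 6.75 and the other HSC arrays 8.94 to 10.16, so there HSC and MP overlapped. The arrays do not separate the spliced from the unspliced Xbp1 message.

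Of the surface markers, Sdc1 was lower in HSC than in B progenitors on its brightest probe set, and Tnfrsf17 was dim in every group. Sdc1 read 6.58 and 5.44 in wildtype HSC, 4.92, 4.96 and 4.93 in hypomorph HSC, and 9.26 and 9.51 in B progenitors. Its MP values were 5.55, 6.17 and 5.87 in the wildtype and 3.47, 2.73 and 3.55 in the hypomorph, so on this, the brightest probe set, HSC overlapped with wildtype MP and lay above hypomorph MP. That was not so on every Sdc1 probe set, since hypomorph HSC minus MP ran from -0.44 to 1.69 over the 4. In the wildtype it ran from 0.15 to 0.95. On another probe set wildtype HSC read 6.42 and 5.57, above every MP array, at 3.93 to 5.15. On a further one they read 5.71 and 5.51 against 4.53 to 5.11, and on the last wildtype HSC and MP overlapped. Tnfrsf17 read 3.48 to 4.45 over all 13 arrays, with every group overlapping. No group here is labelled as a cell type that should carry BCMA, so these arrays hold no bright value to show that its probe set responds.

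Of the 7 members tested, Igha, Jchain and Mzb1 had all 5 HSC arrays above all 6 MP arrays, a pattern that 7.82% of all genes tested showed, and Xbp1 had them all below, as 4.35% did. Against the B progenitors, both wildtype HSC arrays were higher for Igha and Xbp1 (44.4% of all genes) and lower for Mzb1, Prdm1, Irf4 and Sdc1 (23.8%). For Xbp1 this holds on its brightest probe set, while on another both wildtype HSC arrays, at no more than 5.47, were below the B progenitors, at 6.45 and 6.64. These contrasts chose the members and carry no test. Across the 13 arrays, Igha and Jchain had a Pearson r of 0.89, Igha and Irf4 0.15, Igha and Prdm1 -0.06, and Mzb1 and Irf4 0.95. These points fall in 5 groups and share arrays, so the coefficients only describe the group levels.

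Other immunoglobulin genes were read from 55 probe sets, 42 with 1 symbol and 13 with several. All HSC arrays were above all MP arrays for 5 of them, or 9.09%, against 3.70% of all 45101 probe sets and 7.82% of the genes tested, a difference that was not tested. A set of 3, picked out after their values were seen, is assigned jointly to several kappa light chain genes and cannot be given to one of them. They read 8.21 to 11.93 in HSC, 2.42 to 4.32 in MP and 11.90 to 12.66 in B progenitors. The others were Igkv8-30, a kappa variable gene, at 5.99 to 8.92 in HSC against 4.51 to 5.33 in MP, and Igk, at 4.51 to 5.55 against 3.92 to 4.21.

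Ighm, which encodes the heavy chain of IgM, varied between the HSC arrays. Its brightest probe set read 11.06 and 6.59 in wildtype HSC, 7.04, 10.24 and 9.59 in hypomorph HSC, 8.89 to 10.37 in MP, and 14.14 and 14.22 in B progenitors. The wildtype HSC arrays differed by 4.47, rank 2 of the 12765 genes, with the array that was higher for Jchain and Mzb1 again the higher. A probe set shared by Iglc1 and Iglv1, lambda light chain genes, read 6.18 and 7.38 on the first hypomorph HSC arrays, 2.93 to 3.94 on the other HSC arrays, and 9.22 and 9.41 in B progenitors.

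**Figure D2:**
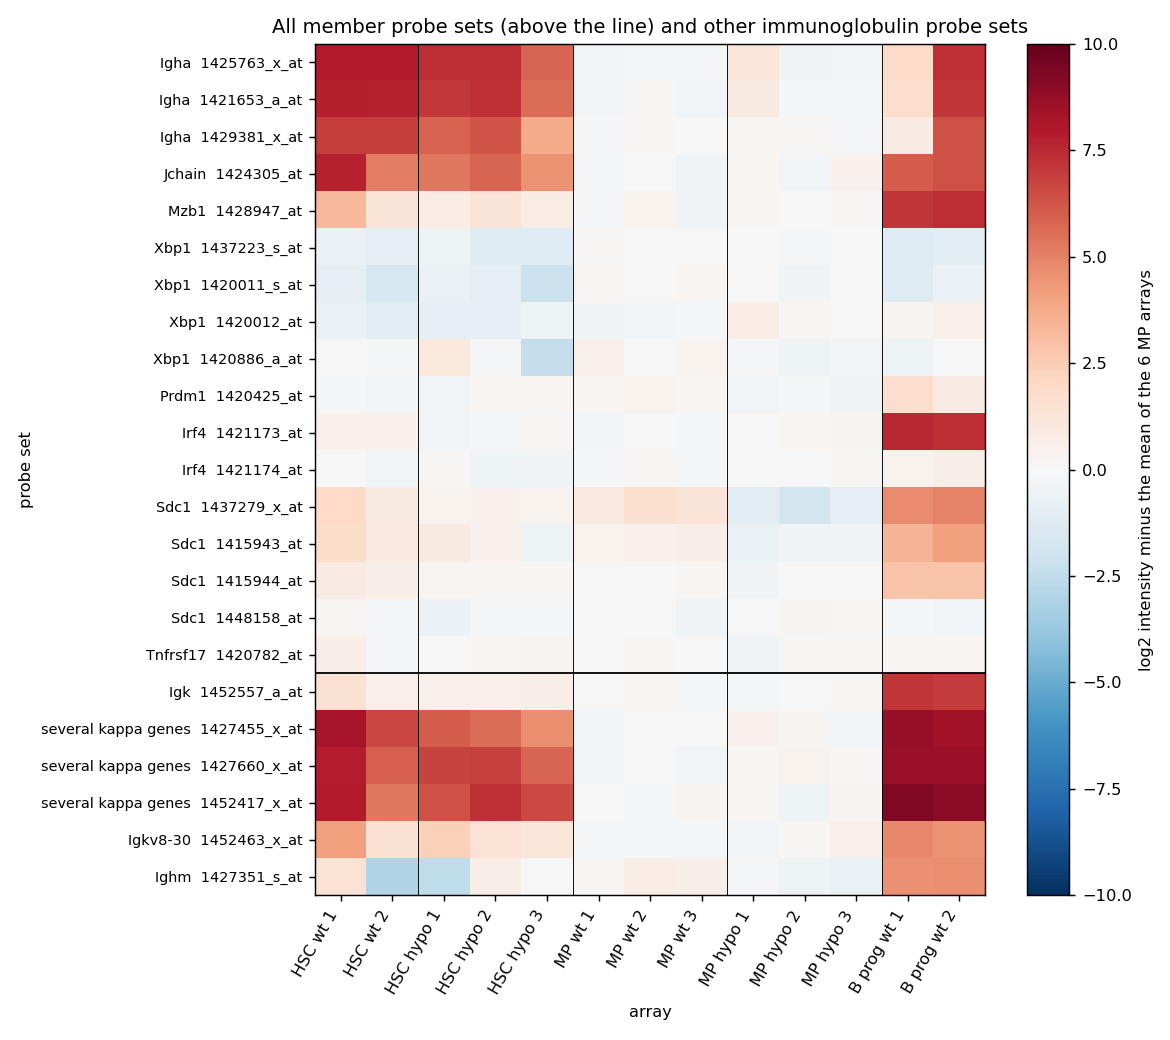
Log2 intensity minus the mean of the 6 MP arrays (colour) for all 17 member probe sets (above the line) and, below it, the other immunoglobulin probe sets with all HSC above all MP and the brightest Ighm probe set, on 13 arrays (columns). HSC columns are red for Igha, Jchain and the joint kappa probe sets and near white for Prdm1 and Irf4, and B progenitor columns are also red for Mzb1, for 1 of the 2 Irf4 probe sets and for 3 of the 4 Sdc1 probe sets.

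In hypomorph HSC none of the 7 members passed the limma test against wildtype HSC, where 10.8% of all genes did. Of these, 4 had an unadjusted p under 0.05, as 26.2% of all genes did, and the median difference of all genes was -0.11. Igha differed by -1.10 (SE 1.05, limma adjusted p = 0.550). Jchain differed by -1.19 (SE 0.55, adjusted p = 0.190), with arrays of the genotypes overlapping. Mzb1 differed by -1.34 (SE 0.41, adjusted p = 0.0513) and Sdc1, on its brightest probe set, by -1.08 (SE 0.33, adjusted p = 0.05003). The factor Irf4 differed by -0.58 (SE 0.20, adjusted p = 0.0795), Prdm1 by 0.24 (SE 0.26, adjusted p = 0.595) and Xbp1 by -0.21 (SE 0.23, adjusted p = 0.617). Irf4 and Prdm1 were below 4.64 on every HSC array, where a probe set cannot be placed above background.

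The differences of Jchain, Mzb1 and Sdc1 moved with the choice of wildtype HSC array. Without the second wildtype array, Jchain differed by -2.48 (limma adjusted p = 0.00756), Mzb1 by -2.30 and Sdc1 by -1.64, all 3 called. Without the first, Jchain differed by 0.094, Mzb1 by -0.38 and Sdc1 by -0.51, none called. Sdc1 also moved to -0.51 without either B progenitor array and to -0.52 in the normalization of the HSC and MP arrays alone, where another probe set stood for it, and Igha moved to -0.58 without the last hypomorph HSC array. The wildtype HSC arrays may also have been seen when Igha and Jchain were chosen.

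In MP, Sdc1 was the only one of the 7 members called between genotypes, where 0.588% of all genes were. It fell by 2.61 in hypomorph MP (SE 0.29, limma adjusted p = 5.20e-04). All 3 hypomorph MP arrays were below 4.64, where a probe set cannot be placed above background, so the size of the fall is loosely known. The call belongs to a single probe set, the brightest of 4, which gave -2.55 (adjusted p = 0.00423) in the normalization of the HSC and MP arrays alone. The other Sdc1 probe sets gave -0.92 (adjusted p = 0.270), -0.16 (adjusted p = 0.710) and 0.29 (adjusted p = 0.532). In that normalization, or without either B progenitor array, another probe set had the highest mean and stood for Sdc1, and the call was lost at -0.08 and -0.16. Prdm1 differed by -0.47 (adjusted p = 0.347), and the remaining members by -0.10 to 0.42.

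The genotype effect was compared between HSC and MP, a difference of differences that 5.64% of genes passed and none of the 7 members did, with 3 of them at an unadjusted p under 0.05, as 24.1% of all genes were. It was 1.54 for Sdc1 (SE 0.44, limma adjusted p = 0.0569), -0.85 for Irf4 (SE 0.27, adjusted p = 0.0773), -1.52 for Mzb1 (SE 0.55, adjusted p = 0.116), -1.44 for Jchain (SE 0.74, adjusted p = 0.253) and -1.53 for Igha (SE 1.41, adjusted p = 0.534). The Sdc1 value is that of its brightest probe set, and its other probe sets gave the opposite sign, at -0.24, -0.35 and -0.61. Irf4 was below 4.64 on every HSC and MP array, so its value compares dim readings. The SE of Igha leaves a wide range of differences possible with these arrays. In the normalization of the HSC and MP arrays alone, its probe set gave -1.47 (SE 0.66, limma adjusted p = 0.206).

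**Figure D3:**
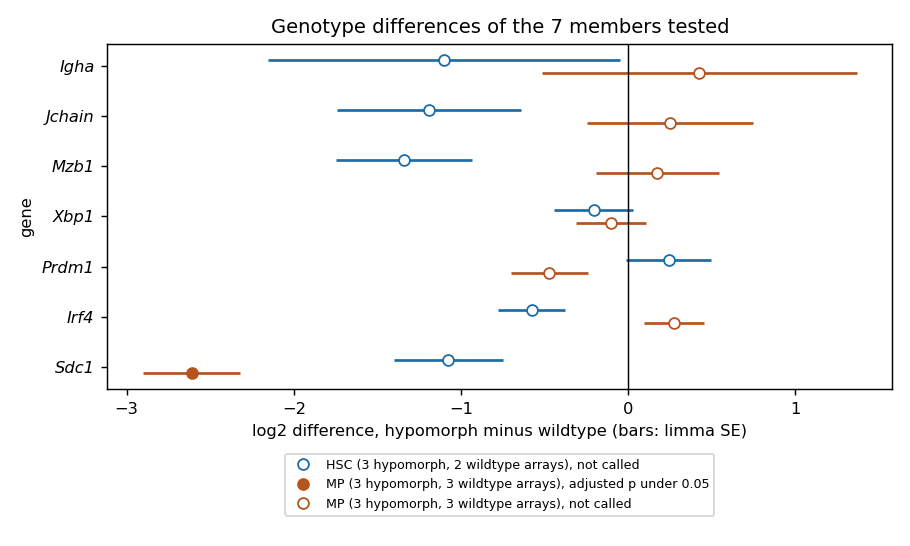
Log2 difference, hypomorph minus wildtype (horizontal axis), with limma SE as bars, for the 7 members tested in HSC (blue) and MP (orange); a filled point has an adjusted p under 0.05. Sdc1 in MP at -2.61 is the single filled point, and the SE of Igha is the widest in both populations.

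The contrast of wildtype B progenitors with wildtype MP uses the means of no HSC array, although HSC arrays share in the estimate of the spread, the filter and the choice of probe sets. Of all genes, 35.9% passed limma's test. Irf4 reached the filter on 2 arrays, both of B progenitors, so it was admitted by the group in which it is higher and had to differ. Prdm1 reached the filter on 3 arrays, of which 2 were of B progenitors, so it was admitted mostly by the group in which it is higher. Jchain reached it on 7 arrays, none of them MP. Irf4 was higher in B progenitors by 7.60 (SE 0.20, adjusted p = 4.80e-12), Mzb1 by 7.34, Jchain by 6.33 and Sdc1 by 3.53. Igha was higher by 4.80 (SE 1.05, adjusted p = 0.00259), with the 2 discordant B progenitor arrays both above MP, and Prdm1 by 1.05 (SE 0.26, adjusted p = 0.00521). Prdm1 lost its call without the first B progenitor array (0.59, adjusted p = 0.116). Xbp1 was lower in B progenitors on its brightest probe set, at -1.22 (adjusted p = 9.90e-04). Another of its probe sets was higher there, at 0.68 (adjusted p = 0.0494), and their average was not called (-0.54, adjusted p = 0.176).

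Beyond the members, 25 of 32 listed genes of antibody-secreting cells were tested. Against wildtype MP, wildtype HSC were higher for 4 of them (18.0% of all genes) and lower for 3 (13.8%), or 5 without the first wildtype HSC array, with the kinase gene Pim2 higher in HSC (the MP value minus the HSC value was -2.40) and Glcci1 higher in MP by 2.31. The median over the list was -0.05, against -0.12 over all genes. Against wildtype HSC, B progenitors were higher for 8 (14.9% of all genes) and lower for 5 (30.2%), or 8 without the first wildtype HSC array. With a single B progenitor array left, 4 or 5 were called higher, since genes bright in B progenitors alone then fail the filter. The B cell coactivator gene Pou2af1 was higher there by 9.63 and the surface receptor gene Slamf7 by 5.28, whereas the costimulatory receptor gene Cd27 was lower, at -5.47. Pou2af1 read 2.63 to 3.19 in HSC, 2.59 to 2.83 in MP, and 12.60 and 12.48 in B progenitors, so the HSC and MP arrays overlapped.

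The secretory pathway and the unfolded protein response, through which antibody-secreting cells fold and export immunoglobulin, were higher in MP than in HSC. Of 50 genes tested, 29 were higher in wildtype MP and 1 lower, with a median of 0.83 against -0.12 over all genes, where 31.8% of all genes passed the test, 13.8% higher in MP and 18.0% lower. The chaperone gene Hsp90b1 was higher in MP by 2.97, the Hspa5 cofactor gene Dnajc3 by 2.10 and Sdf2l1, a protein of the endoplasmic reticulum, by 2.10. In the hypomorph 16 were higher in MP and none lower, where 4.18% of all genes were higher, 7.47% lower and 11.6% either. Without the first wildtype HSC array 19 were called higher in wildtype MP. In the hypomorph 7, 10 and 9 were called without the first, second and last hypomorph MP array, and 8 without the second hypomorph HSC array. Between the wildtype B progenitors and HSC, 13 were higher in B progenitors and 9 lower, where 45.1% of all genes passed. Hspa5, which encodes the chaperone BiP, read 12.02 to 12.81 in HSC, 13.10 to 13.44 in MP, and 12.12 and 12.46 in B progenitors.

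Between genotypes in HSC, 3 of the 25 genes of antibody-secreting cells and 6 of the 50 secretory genes were called, shares near the 10.8% of all genes. In hypomorph HSC the signal peptidase gene Sec11c was higher by 1.502 (limma adjusted p = 0.00521), while Zbtb20, at -1.33, and Creb3l2, at -1.27, both encoding transcription factors, were lower. The count of lower genes, 2, became 4 without the first wildtype or the first hypomorph HSC array and 1 without the second of either. Of the secretory genes, 4 rose and 2 fell, with Hsp90b1 and the stress factor Atf4 each up by 1.84 and the stress factor Ddit3 at -1.27. Without the second wildtype HSC array 1 rose and 0 fell, and without the second hypomorph HSC array 2 rose. In MP neither list had a called gene by limma, with 2 and 2 genes at an unadjusted p under 0.05, where 0.588% of all genes were called and 1911 of the 12765 had such a p.

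Markers of mature B cells were measured beside the members. Of 23 tested, 8 were higher in HSC than in MP of the wildtype (18.0% of all genes) and none lower (13.8%), and 5 were higher without the last wildtype MP array. As MP minus HSC, they were led by the class II genes H2-Aa at -3.90 and H2-Eb1 at -3.41 and by Cd74, the class II invariant chain, at -2.47. The list averaged 5.56 to 5.96 on the HSC arrays, 5.12 to 5.29 on the MP arrays, and 9.41 and 9.60 on the B progenitor arrays. On every HSC array 9 of the 23 genes, among them Ms4a1 (CD20) and the B cell factor gene Ebf1, were below 4.64. The subunits of the B cell receptor differed, with Cd79a at 3.97 to 4.79 in HSC and Cd79b at 7.12 to 8.48 in HSC and 7.47 to 8.07 in MP. Between genotypes in HSC, 2 of the 23 were called, both lower in the hypomorph, where 10.8% of all genes were called. They were H2-Aa at -1.06 (limma adjusted p = 0.0131) and Cd79b at -0.89 (limma adjusted p = 0.0394). The count became 4 without the first and 1 without the second or the last hypomorph HSC array. Over the other settings it ran from 0 to 3. Genes of plasmacytoid dendritic cells, which secrete interferon, averaged 6.87 to 7.19 in HSC and 7.18 to 7.30 in MP. The part of any of these cell types in the Igha and Jchain signal was not tested.

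**Figure D4:**
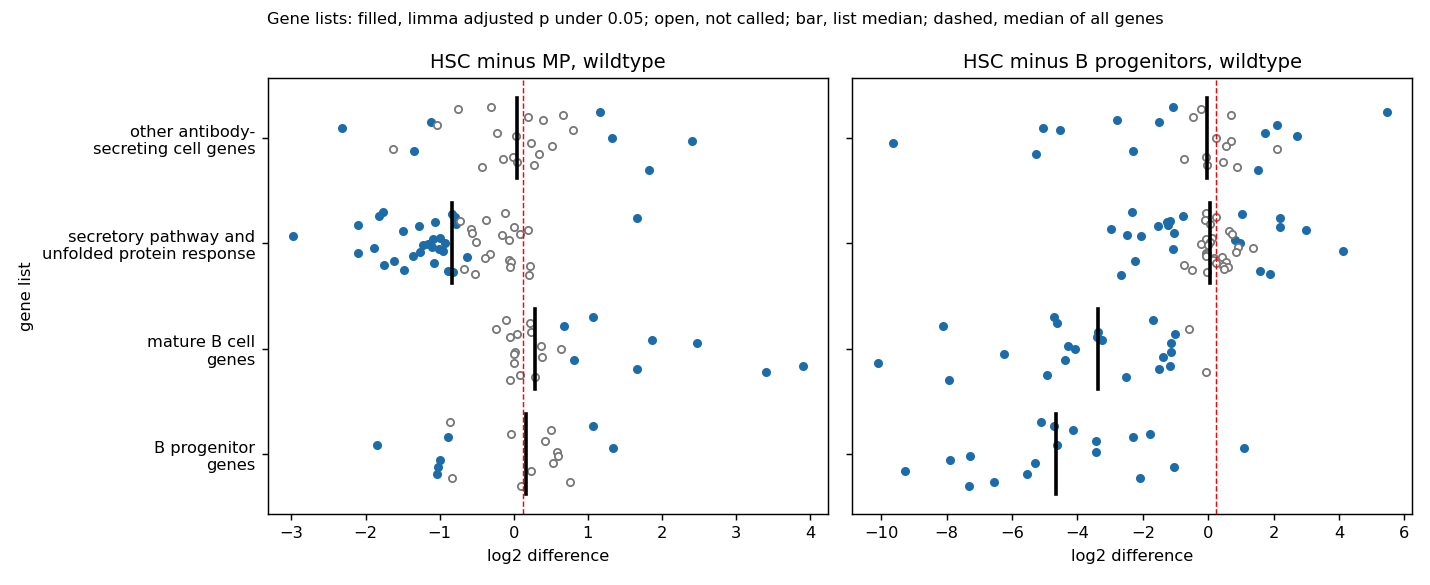
Log2 differences of single genes (points) in 4 gene lists, wildtype HSC minus wildtype MP (left) and wildtype HSC minus wildtype B progenitors (right); filled points have a limma adjusted p under 0.05, bars are list medians and dashed lines the medians of all genes. The median of the secretory list lies below 0 on the left, with 29 of 50 genes called lower in HSC (13.8% of all genes) and 1 higher (18.0%). On the right, the mature B cell list has 21 of 23 genes called lower in HSC than in B progenitors (14.9% of all genes). That count fell when a single B progenitor array was left. Of the 23 genes, 9 were below 4.64, the filter value, on every HSC array. These could pass the filter only on other arrays, so the count is partly fixed by the filter and is a description.

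Likeness to Igha and Jchain over the 13 arrays, by Pearson r, was ranked among the tested genes other than the members. The joint kappa probe sets, also high in HSC and B progenitors and low in MP, carry several symbols and were not ranked. The genes most like Igha were Galnt12 (0.95), Rtp4, Dusp16, Trib3 and Cmtm4. Those most like Jchain were H2-Eb1 (0.97), H2-Aa (0.95), Nlrc5, Ier5 and Gltp. All have higher means in HSC than in MP, and the points fall in 5 groups. In the wildtype Galnt12 averaged 7.78 ± 0.19 (SD, n = 2) in HSC against 5.52 ± 0.47 (SD, n = 3) in MP, a narrower range than that of Igha. H2-Eb1, a class II gene, averaged 9.18 ± 0.11 (SD, n = 2) in wildtype HSC and 9.25 ± 0.10 (SD, n = 2) in B progenitors, against 5.78 ± 0.26 (SD, n = 3) in MP of that genotype.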

How the data were processed

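RNA of 13 arrays in 5 groups was read from the authors' deposited RMA values, per the submitters' processing notes, taken as log2 intensities from their range of 1.93 to 14.99. No RMA version is given in the sources used here. The 11 HSC and MP arrays were also deposited in a normalization of their own, used as an alternative and never as further replicates. Groups follow the sample titles.

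Of 45101 probe sets, 34958 carried 1 symbol, 932 several and 9211 none. A gene was tested when its probe set reached 4.64, the median of all values, on at least 2 arrays, and its brightest such probe set on average was used. All 5 groups entered one limma fit (limma 3.58.1, R 4.3.3; residual degrees of freedom: 8), whose moderated tests were adjusted by Benjamini and Hochberg over 12765 genes and called under 0.05. Tables were made with Python 3.11.15 and pandas 2.3.3, and the calling was tested on simulated data.

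The members and gene lists were chosen with earlier results of these data known. Text names all members, the immunoglobulin genes measured, up to 3 called genes per list with the largest difference, marker genes for the check of cell types, and the 5 genes most like Igha and Jchain; Hspa5, the levels of Pou2af1 and the B cell genes Ms4a1, Ebf1, Cd79a and Cd79b were added after their values were seen. Alternatives were array weights, a robust trended prior, centring on the median, averaged probe sets, the 75th percentile (7.10) or nothing as the filter, the other normalization, a fit of just the groups compared, replicate numbers as a block, and, added after seeing the data, the same Sdc1 probe set in the other normalization. Each array was also left out, where a lone array is assumed to vary like the other groups. Without detection calls, a dim probe set cannot be placed above or below background.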

Additional observations from a re-analysis of the deposited data

Results flagged for a closer look

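By limma's test of the difference, 3 of 50 secretory genes had a higher and 1 a lower genotype effect in HSC than in MP. Of all genes, 5.64% passed. The higher count became 7 without the last hypomorph HSC array. The lower count became 0 without the second hypomorph MP array or the first or last wildtype MP array. Both counts also fell without the second wildtype HSC array, which leaves a lone wildtype HSC array in the fit. Over the alternative settings the counts ran from 1 to 8 higher and from 0 to 3 lower. Hsp90b1 read 9.14 and 8.48 in wildtype HSC and 10.95, 10.86 and 10.15 in hypomorph HSC, against 11.61 to 11.92 in wildtype MP and 11.16 to 11.59 in hypomorph MP. Its difference of effects, HSC minus MP, was 2.26 (SE 0.37, limma adjusted p = 0.00467), and it stayed called with each of the 13 arrays left out in turn. That of Dnajc3 was 1.45 (SE 0.29, limma adjusted p = 0.0124), and it lost its call without the second wildtype HSC array (1.31, adjusted p = 0.0551). Ddit3 read 8.82 and 9.05 in wildtype HSC and 7.50, 7.73 and 7.76 in hypomorph HSC, and its difference of effects was -1.54 (SE 0.33, limma adjusted p = 0.0168). Ddit3 lost its call without the second wildtype HSC array (-1.43, adjusted p = 0.0710), the second hypomorph MP array (-1.49, adjusted p = 0.0504), the first wildtype MP array (-1.36, adjusted p = 0.0528) or the last wildtype MP array (-1.47, adjusted p = 0.0576).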

How the results depend on the processing

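The number of members called between genotypes depended on the setting. In HSC it was 0, and became 1 in the other normalization (Mzb1), 2 with array weights (Irf4 and Sdc1), 1 with a robust trended prior (Sdc1), 2 with the filter at the 75th percentile and 2 with the mean of probe sets (Mzb1 and Sdc1 in each), and 0 to 3 when an array was left out. In MP it was 1, and became 0 in the other normalization, 3 with array weights and 0 to 1 when an array was left out. For the difference of effects it was 0, and became 4 with array weights, 1 with the filter at the 75th percentile, 1 with centring and 0 to 2 when an array was left out. The array weights ran from 0.24 to 51.8 and their estimate did not converge. The Irf4 call with them in HSC rests on values below 4.64. The cause of these moves was not tested, other than the change of the Sdc1 probe set.

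The wildtype difference of Igha between HSC and MP was 8.16, and 7.92 with the replicate block, 7.67 with the mean of probe sets and 8.01 with centring. Arrays of the same number had residual correlations of -0.31 to 0.30. Deviations from the mean are tied to each other in groups this small, so these values do not settle whether the numbers pair the samples. The block left 0 members called in HSC and 1 in MP.

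Signs turned for some differences. Jchain in HSC, at -1.19, turned without the first wildtype array (range with an array left out -2.48 to 0.094). Igha in MP, at 0.42, turned without the first hypomorph array (-0.091 to 0.70). The Sdc1 difference of effects, at 1.54, turned where another probe set stood for Sdc1. That was in the other normalization (-0.43) and without either B progenitor array (-0.35 to 2.10). The Xbp1 difference of effects, at -0.10, turned with the mean of probe sets (0.0052) and with centring (0.052). It also turned without the last hypomorph or the first wildtype HSC array (0.041 and 8.6e-04, in a range of -0.35 to 0.041). With 2 or 3 arrays in a group, differences such as that of Igha in HSC, with an SE of 1.05, are known only loosely. That SE pools the spread of all 5 groups, among them the B progenitors, whose Igha values have an SD of 3.79. In the normalization of the HSC and MP arrays alone, the same Igha probe set gave -1.09 in HSC (SE 0.49, limma adjusted p = 0.198).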

Other observations

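Probe sets of Ighm differed in which B progenitor array was the brighter. One read 9.48 and 6.95 on the first and the second, and another 9.16 and 6.42, opposite in direction to Igha, whereas the brightest read 14.14 and 14.22. On an Sdc1 probe set other than the brightest, all 3 hypomorph HSC arrays and 1 wildtype MP array held the identical value 5.11.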
